A study of Mus musculus with 6 samples.

Results

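Chromatin regulators are the proteins that write, read or remove marks on DNA and histones, or that move nucleosomes. The 43 genes examined here were listed by name, at a time when earlier results of these data were known. They were 7 of DNA methylation, 11 of the Polycomb complexes, and 6 of histone H3 lysine 9 methylation and heterochromatin protein 1 (HP1). The others were 11 deacetylases, acetyltransferases and a corepressor, and 8 remodelers and organisers. A gene counted as measured when the accession or the description of a probe on the arrays named it. By that rule 42 of the 43 genes were measured, on 45 probes, and Cbx3, an HP1 gene, was not: the probes that mention it are described as pseudogenes of Cbx3 and were left out. They were 42 of 20265 genes and unnamed probes tested, of which 9333 carried a gene name.

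Expression was measured in keratinocytes of adult mice, 7 weeks old, that had been taken from trypsin-digested skin and sorted by flow cytometry on 2 surface proteins. Both fractions carried alpha-6 integrin, which anchors basal keratinocytes to the basement membrane. One fraction, alpha6+CD34+, also carried CD34, which in mice marks the hair follicle bulge, and is labelled as stem and progenitor cells. The other, alpha6+CD34-, is labelled as basal cells. No genotype, treatment, strain or sex is given in the sources used here, nor whether animals were pooled. RNA of the 2 fractions of each of 3 biological replicates was hybridised together on 2 arrays with the dyes exchanged, which makes 6 arrays and n = 3. Each value below is a log2 ratio, CD34+ over CD34-, so a negative value is a lower level in CD34+ cells, and errors are SDs over the replicates. A gene rose or fell where limma gave it a Benjamini-Hochberg adjusted p under 0.05, adjusted over all 20265 features. The sorted fractions are mixtures, so a lower level in fewer cells and a lower level per cell cannot be told apart.

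DNA methylation is copied at each cell division by Dnmt1, which Uhrf1 brings to newly replicated DNA, whereas Dnmt3a and Dnmt3b set new marks, and proteins with a methyl-CpG binding domain (Mbd) read them. Polycomb repressive complex 2 (PRC2) methylates histone H3 at lysine 27 through Ezh2 or Ezh1, and Polycomb repressive complex 1 (PRC1) binds that mark and modifies histone H2A. Lysine 9 methylation, laid down by Suv39h1, Suv39h2 and Ehmt2, is bound by HP1 in heterochromatin. In mouse epidermis, Dnmt1, Ezh2, histone deacetylases and Satb1 have known roles in holding progenitor cells in their state or in their differentiation.

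As a check of the labels, Cd34 was higher in CD34+ cells by 5.84 ± 0.43 (limma adjusted p 0.00374), and 8 of 9 bulge markers rose. Itga6, which codes for the integrin used for both gates, fell by 1.18 ± 0.27 (limma adjusted p 0.0182), and the basal keratin Krt14 fell by 1.11, while the basal genes Itgb4 and Col17a1 rose by 0.39 and 0.67. The arrays' log2 ratios correlated between 0.50 and 0.91 over all probes, and precision is limited by their small number. Replicate 3 stood apart from the others. It lay farthest from the middle replicate for 49.4% of all features and for 20 of the 42 regulators (47.6%), and its arrays were read with another version of the scanner software.

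Of the 42 chromatin regulators, 8 fell in CD34+ cells, 0 rose and 34 did not pass. Those that fell were Satb1, Uhrf1, Smarca4, Mbd2, Ezh2, Mbd3, Dnmt1 and Ncor1. Over all features 12.0% passed, 6.58% as lower and 5.43% as higher, against 19.0% of the regulators as lower. Among all named genes 8.04% fell. At an unadjusted p under 0.05, 14 regulators were lower and 1, Hdac4, was higher, against 16.0% and 14.6% of all features. A ratio below 0 in all 3 replicates was found for 20 regulators (47.6%), against 27.1% of all features, and a ratio above 0 in all 3 for 3 regulators, against 28.1%. The median of the regulators was -0.10, with replicate medians of -0.08, -0.11 and -0.11, and that of all features 0.00. Without replicate 1 limma called 0 features and 0 regulators, although 11 regulators were still lower at an unadjusted p under 0.05, and without replicate 2 it called 253 features and 0 regulators. Without replicate 3 it called 4205 features and 11 regulators, all of them lower. With the software version as a term in the fit 12 regulators fell and Hdac4 rose. Only replicate 3 had the other version, so that term takes replicate 3 out of the error, which then rests on replicates 1 and 2. With the 2 channels fitted as unpaired groups, with no replicate block, 548 features passed and Satb1 was the 1 regulator left.

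**Figure D1:**
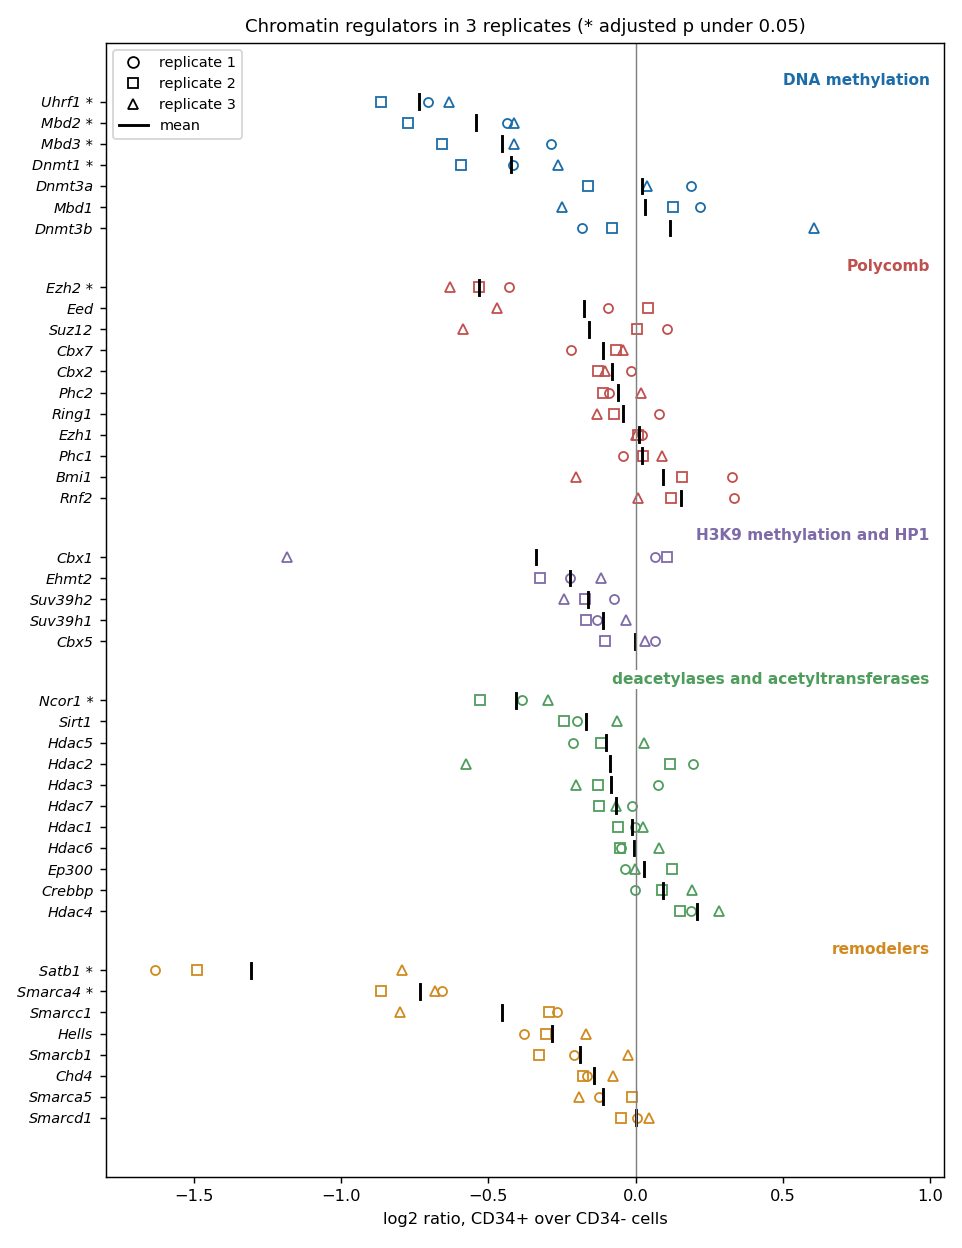
Log2 ratios of CD34+ over CD34- cells (x axis) for the 42 measured chromatin regulators (y axis), by class. Open symbols are the 3 replicates, each the mean of 2 dye-exchanged arrays, black bars are their means, and asterisks mark the 8 genes with a limma adjusted p under 0.05, whose 3 replicates all lie below 0.

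**Figure D2:**
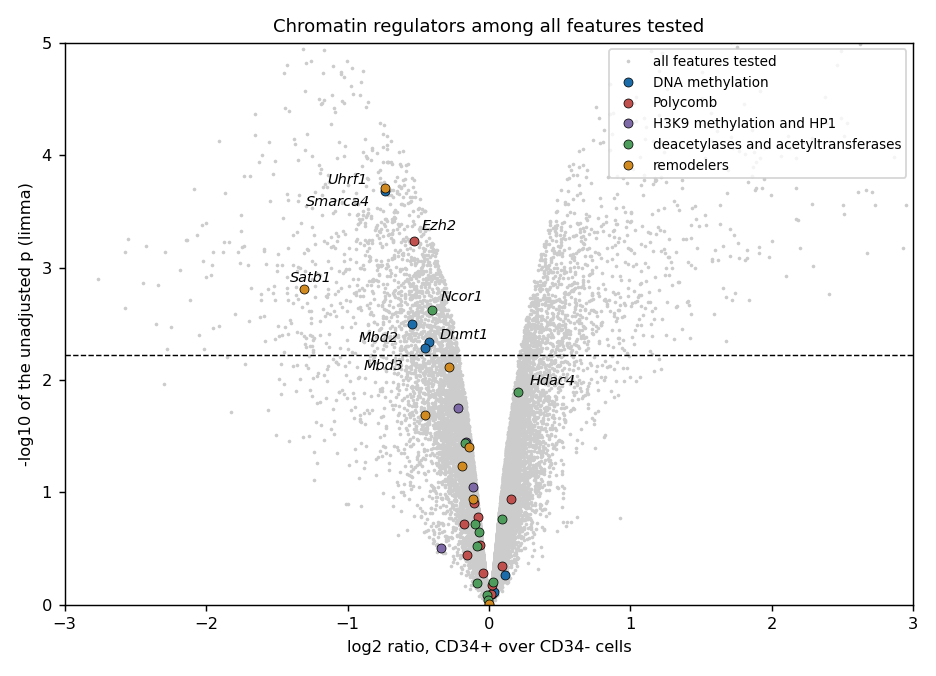
Mean log2 ratio (x axis) against -log10 of limma's unadjusted p (y axis) for all 20265 features tested (grey) and the 42 regulators (coloured by class). The dashed line is the largest unadjusted p that passes adjustment, 0.00598. The 8 regulators above it lie left of 0, and 38 features fall outside the range drawn.

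DNA methylation held the largest share of falls, 4 of 7 genes (57.1%, against 6.58% of all features), with 0 rises and a class median of -0.42. Those that fell were the maintenance pair and a pair of methyl-CpG binding proteins. Uhrf1, which recognises hemimethylated DNA behind the replication fork, gave -0.71, -0.86 and -0.63 in replicates 1, 2 and 3. That is a 1.66-fold lower level, at -0.73 ± 0.12 (limma adjusted p 0.0155), lower on 6 of 6 arrays. Dnmt1, the maintenance methyltransferase that Uhrf1 recruits, gave -0.42, -0.59 and -0.26, a smaller fall of 0.42 ± 0.17 (limma adjusted p 0.0438). All 3 replicates lay below 0 for both genes, with the largest fall in replicate 2. Dnmt1 sits near the threshold, and median centring in place of loess took it to an adjusted p of 0.0550 and scaling between arrays to 0.0563.

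Mbd2, which binds methylated DNA and recruits the nucleosome remodeling and deacetylase complex (NuRD), gave -0.44, -0.77 and -0.41. Its mean fell by 0.54 ± 0.20 (limma adjusted p 0.0372). Mbd3, its relative in NuRD, which in mammals binds methylated DNA poorly, gave -0.29, -0.66 and -0.41, a fall of 0.45 ± 0.19 (limma adjusted p 0.0465). For both, replicate 2 had the lowest ratio, and no replicate reached 0. Mbd3 lost its call under 7 of 17 alternatives, among them median centring, scaling between arrays and the loss of any 1 replicate.

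The other 3 genes of the class did not pass, and their replicates lay on both sides of 0. The de novo methyltransferase Dnmt3a gave 0.19, -0.16 and 0.04, with a 95% interval of the mean from -0.20 to 0.24. Dnmt3b, the other de novo enzyme, had the largest positive mean of the class at 0.12 ± 0.43. Its replicates were -0.18, -0.08 and 0.61, and a single array read 1.40, so the positive mean came from replicate 3. Mbd1 gave 0.22, 0.13 and -0.25. The interval of Dnmt3a lies above the mean of Uhrf1 and of Dnmt1. Its probe was dim, however, at a log2 signal of 6.23 to 6.53 in CD34+ cells, against 7.83 to 7.96 for Dnmt1. On the deposited ratios, made without an offset, Dnmt3a was at 0.06 ± 0.50, a wider spread than the SD of 0.18 here. The interval of Dnmt3b, from -0.36 to 0.59, reaches a fall close to that of Dnmt1. Differences between these genes were not tested.

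Many genes of S phase are known targets of E2F factors, whose sites are rich in G and C, and genes of the cell cycle often carry CCAAT boxes, which the factor NF-Y binds. RefSeq promoter windows on GRCm38.p6, 300 bases from 250 before to 50 after an annotated start, were at hand for 38 of the 43 genes and 58 starts. As letters like an E2F site, TTGGCGC was searched on both strands, as were the related forms TTCGCGC (with a central CG), TTCCCGC (with a run of C) and, as the last of them, TTGCCGC. For CCAAT, too, both strands were searched, and overlapping matches were each counted. An E2F-like match overlapped a CCAAT match in 148 of 32851 windows of the whole table. At least 1 window with E2F-like letters was found for 12 of 38 regulators (31.6%), against 15.9% of the named genes tested and 10.9% of all genes of the table. Among the 7 regulators that fell and had a window, 4 held such letters (57.1%), and among the 30 that did not pass, 7 did (23.3%). By class, the highest share was in lysine 9 methylation and HP1, 4 of 6 genes (66.7%), where no measured gene passed. It was 3 of 5 for DNA methylation, 3 of 8 for remodelers, 2 of 10 for Polycomb and 0 of 9 for deacetylases and acetyltransferases. A link between the letters and the falls was not tested. CCAAT was found for 15 of 38 regulators (39.5%), close to the 41.1% of all genes. It was found for 5 of the 7 that fell and 10 of the 30 that did not pass. In a proliferation list, 16 of 19 genes had CCAAT and 8 had E2F-like letters (42.1%). Genes with several starts have more chances to match. Counted per window, 33.3% of the 15 windows of regulators that fell held E2F-like letters, and 17.1% of the 41 of those that did not pass. Over the named genes tested, 13.4% of windows did. For CCAAT these per-window shares were 46.7%, 29.3% and 37.6%. A match of letters is no evidence of binding.

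The windows of the 4 regulators that fell and held E2F-like letters are shown, the one with most matches where a gene has several starts, with the matching letters in capitals. The Uhrf1 window is chr17:56303087-56303386 on the plus strand, with 1 match. The Dnmt1 window, chr9:20952574-20952873 on the minus strand, has 3 matches, and the other 2 annotated starts of Dnmt1 have none. Windows were placed by annotated starts alone. Whether letters in a window lie in transcribed or coding sequence from another start of the same gene was not examined. The Mbd3 window is chr10:80399482-80399781 on the minus strand, with 1 match. The Ezh2 window, chr6:47594981-47595280 on the minus strand, has 1 match. Each of the 4 windows also holds 3 CCAAT matches over both strands, left in lower case.
Uhrf1: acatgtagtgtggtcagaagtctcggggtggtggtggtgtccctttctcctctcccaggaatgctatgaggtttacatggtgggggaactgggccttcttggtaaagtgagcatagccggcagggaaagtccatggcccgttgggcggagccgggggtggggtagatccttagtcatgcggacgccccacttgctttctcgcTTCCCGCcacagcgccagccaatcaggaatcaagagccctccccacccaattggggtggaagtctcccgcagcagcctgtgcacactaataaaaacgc
Dnmt1: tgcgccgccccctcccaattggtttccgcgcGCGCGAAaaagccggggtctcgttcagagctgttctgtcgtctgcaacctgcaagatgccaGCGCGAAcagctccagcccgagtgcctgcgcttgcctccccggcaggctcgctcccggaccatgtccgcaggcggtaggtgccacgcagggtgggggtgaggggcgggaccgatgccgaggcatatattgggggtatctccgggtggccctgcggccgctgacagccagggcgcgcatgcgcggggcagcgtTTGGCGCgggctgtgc
Mbd3: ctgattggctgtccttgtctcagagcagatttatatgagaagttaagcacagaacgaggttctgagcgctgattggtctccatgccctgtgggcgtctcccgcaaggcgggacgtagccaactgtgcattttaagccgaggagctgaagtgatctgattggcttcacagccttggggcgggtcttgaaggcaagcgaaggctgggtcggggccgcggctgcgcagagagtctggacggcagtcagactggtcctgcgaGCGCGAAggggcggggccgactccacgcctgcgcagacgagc
Ezh2: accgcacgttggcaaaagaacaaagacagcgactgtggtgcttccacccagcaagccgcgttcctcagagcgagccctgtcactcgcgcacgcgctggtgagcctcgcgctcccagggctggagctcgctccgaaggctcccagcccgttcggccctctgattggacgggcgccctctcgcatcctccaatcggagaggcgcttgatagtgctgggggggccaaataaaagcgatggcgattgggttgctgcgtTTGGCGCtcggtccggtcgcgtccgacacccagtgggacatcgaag
The windows of Smarca4, Ncor1 and Satb1, which also fell, held none of the E2F-like letters. Those of Cbx1, Hells, Smarcb1, Smarcd1, Suv39h1, Suv39h2 and Suz12, which did not pass, did.

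In the Polycomb class 1 of 11 genes fell (9.09%), near the 6.58% of all features. None rose, and the class median was -0.06. Ezh2, the methyltransferase of PRC2 in dividing cells, gave -0.43, -0.53 and -0.63. It fell 1.44-fold, at -0.53 ± 0.10 (limma adjusted p 0.0203), and was below 0 on 6 of 6 arrays. Its paralogue Ezh1, known as the methyltransferase of resting cells, gave 0.02, 0.01 and 0.00, with a 95% interval of the mean from -0.10 to 0.13. The Ezh1 probe was dim, well above background on 2 of 6 arrays in CD34+ cells and on 3 of 6 in CD34- cells, and a dim probe has its ratio drawn toward 0 by the background offset. On the deposited ratios Ezh1 was at 0.06.

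Eed and Suz12, the subunits that PRC2 needs beside Ezh2 or Ezh1, did not pass. Eed gave -0.09, 0.04 and -0.47, and Suz12 gave 0.11, 0.01 and -0.59 on a probe described only as similar to it. Both were close to 0 in replicates 1 and 2 and low in replicate 3, which had the lowest Ezh2 ratio too. No PRC1 gene passed. Rnf2, its ubiquitin ligase, had the largest positive mean of the class at 0.15 ± 0.17, from replicates of 0.34, 0.12 and 0.01. Bmi1, a partner of Rnf2 known for its role in stem cell self-renewal, gave 0.33, 0.16 and -0.20, positive in replicates 1 and 2 and negative in replicate 3. Ring1, Phc1, Phc2, Cbx2 and Cbx7, the other PRC1 subunits of the class, had means from -0.11 for Cbx7 to 0.02 for Phc1, which lacked a value on 1 array because of an outlier mark.

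No gene of lysine 9 methylation and HP1 passed, and all 5 measured means were at or below 0, with a class median of -0.16. Ehmt2, which adds methyl groups to lysine 9 in euchromatin, came closest, with -0.22, -0.33 and -0.12 and a mean of -0.22 ± 0.10 (limma adjusted p 0.0904). Without replicate 3, a setting in which 10.6% of all features fell against 6.58% in the main one, Ehmt2 passed, at -0.27 (limma adjusted p 0.0425). It did not pass without replicate 1 or without replicate 2. The heterochromatin methyltransferases Suv39h1 and Suv39h2 had means of -0.11 ± 0.07 and -0.16 ± 0.09, below 0 in every replicate, and in the deposited ratios, made without an offset, were at -0.22 and -0.49 without passing. Cbx1, an HP1 gene, had the lowest mean of the class, -0.34 ± 0.73, from replicates of 0.07, 0.11 and -1.19. Replicates 1 and 2 lay above 0 and replicate 3 far below, and without replicate 3 its mean was 0.09. Cbx5, another HP1 gene, gave 0.07, -0.10 and 0.03, on both sides of 0, with a 95% interval of the mean from -0.15 to 0.15.

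Among deacetylases, acetyltransferases and their corepressor, 1 of 11 fell (9.09%), near the 6.58% of all features. None rose, and the class median was -0.07. The gene that fell was the corepressor and no enzyme. Ncor1, the nuclear receptor corepressor that holds and activates Hdac3, gave -0.39, -0.53 and -0.30, a fall of 0.40 ± 0.12 (limma adjusted p 0.0327) seen on 6 of 6 arrays. Hdac3 gave 0.08, -0.13 and -0.20 and did not pass. Hdac1 and Hdac2, the deacetylases of NuRD and other corepressor complexes, differed in how well they were measured. Hdac1 gave -0.00, -0.06 and 0.03, with a 95% interval from -0.13 to 0.11. Hdac2 gave 0.20, 0.12 and -0.57, again with replicate 3 below the others, and its interval from -0.56 to 0.38 leaves a change of either sign.

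Hdac4, a class II deacetylase that shuttles between nucleus and cytoplasm, had the largest positive mean of all 42 regulators. Its replicates were 0.19, 0.15 and 0.29, a mean of 0.21 ± 0.07 that did not pass (limma adjusted p 0.0753), although all 3 were above 0. The probe is described only as similar to Hdac4. The class II genes Hdac5, Hdac6 and Hdac7 had means of -0.10, -0.01 and -0.07. Sirt1, an NAD-dependent deacetylase, gave -0.20, -0.24 and -0.06, at -0.17 ± 0.09 (limma adjusted p 0.136). The acetyltransferase coactivators Ep300 and Crebbp were at 0.03 and 0.09, and the other Crebbp probe gave -0.13 ± 0.11, so the sign for Crebbp depends on the probe.

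Of the 8 remodelers and organisers, 2 fell (25%, against 6.58% of all features) and 0 rose. In all 3 replicates 7 were below 0, against 27.1% of all features, and the class median was -0.24. Satb1, a chromatin organiser that p63 activates in epidermal progenitors of mice, had the largest change of all 42 regulators. Its replicates were -1.63, -1.49 and -0.79, a 2.47-fold lower level at -1.31 ± 0.45 (limma adjusted p 0.0278). The fall was smallest in replicate 3, and all 6 arrays lay between -1.68 and -0.79. Scaling between arrays took Satb1 to an adjusted p of 0.0528.

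Smarca4, the ATPase BRG1 of the SWI/SNF complex, gave -0.66, -0.86 and -0.68. It fell 1.66-fold, at -0.73 ± 0.11 (limma adjusted p 0.0152), the smallest adjusted p among the regulators. The other Smarca4 probe gave -0.59, -1.07 and -0.23, the same direction without passing (limma adjusted p 0.0943 over all probes). Both probes were named through their descriptions. With probes named through accessions only, Smarca4 was not measured and 7 of 30 regulators fell. Smarcc1, a core SWI/SNF subunit, had a mean of similar size to Mbd3, -0.45 ± 0.30, and did not pass (limma adjusted p 0.0982). Its replicates were -0.27, -0.29 and -0.80, so its spread came from replicate 3. Without that replicate, where 10.6% of all features fell, Smarcc1 passed at -0.28 (limma adjusted p 0.0315). It did not pass without replicate 1 or without replicate 2. The subunits Smarcb1 and Smarcd1 gave means of -0.19 and 0.00, and Smarcd1 had a 95% interval from -0.12 to 0.13.

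Hells, a helicase-like remodeler needed for normal DNA methylation in mice, missed the threshold with -0.38, -0.31 and -0.17 and a mean of -0.28 ± 0.11 (limma adjusted p 0.0566). On the deposited ratios it was at -0.56 and passed with an adjusted p of 0.0267. Chd4, the ATPase of NuRD, was at -0.14 ± 0.06, below 0 in each replicate, and at -0.33 on the deposited ratios, where it did not pass. Smarca5, the ATPase of the ISWI family, was at -0.11 ± 0.09.

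A wider list held other chromatin genes, also listed by name with earlier results of these data known, of which 113 were measured. In that list 15 genes fell (13.3%), 9 rose and 89 did not pass, and the median was -0.06. Over all features 6.58% fell and 5.43% rose. Its classes did not all run with those of the first 42 genes. In DNA methylation 0 of 7 fell, and Uhrf2, the paralogue of Uhrf1, rose by 0.41 ± 0.16 (limma adjusted p 0.0430). Uhrf2 gave 0.24, 0.45 and 0.55, each above 0, where Uhrf1 was below 0 in each. In Polycomb 2 of 16 rose and 0 fell. Rbbp4 had the lowest mean of these 16, -1.08 ± 0.55, and narrowly did not pass (limma adjusted p 0.0538). Phf1, an accessory subunit of PRC2 that binds H3K36 methylation, gave 1.19, 1.34 and 1.18, a 2.36-fold rise at 1.24 ± 0.09 (limma adjusted p 0.00694) and the largest rise of either list.

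Among 25 deacetylases, acetyltransferases and corepressors of the wider list 2 rose and 2 fell, against 5.43% and 6.58% of all features. The corepressor Rcor1, of the CoREST complex, fell by 0.45 ± 0.11 (limma adjusted p 0.0267). The mitochondrial deacetylase Sirt3 rose by 0.77 ± 0.26, and the acetyltransferase Kat2b, also called PCAF, by 0.43 ± 0.04. Among remodelers 3 of 32 rose and 6 fell. Baz1a, a subunit that pairs with Smarca5, fell by 1.91 ± 0.30 (limma adjusted p 0.0119), the largest fall of either list, and the DNA-bending protein Hmgb2 by 1.35 ± 0.29. Smarca1, the ISWI ATPase related to Smarca5, rose by 0.77 ± 0.20, and Smarcd3, a SWI/SNF subunit related to Smarcd1, by 0.62 ± 0.15. So within the ISWI pair Smarca1 rose while Smarca5 did not pass, and the difference between the genes of a pair was not tested here.

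Histone chaperones and variants had the highest share of falls in the wider list, 6 of 16 (37.5%, against 6.58% of all features). They had 0 rises and a median of -0.52. H2ax, the histone variant phosphorylated at DNA breaks, fell by 1.20 ± 0.21, and Anp32e, a chaperone that removes the variant H2A.Z, by 0.85 ± 0.27 (limma adjusted p 0.0141 and 0.0262). Of 3 wider genes of lysine 9 methylation, Lbr, a receptor of the nuclear envelope that binds HP1, fell by 0.34 ± 0.08 and the others did not pass. None of 14 trithorax and related methylation genes passed in limma, with 2 at an unadjusted p under 0.05, both lower.

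Counted by complex over both lists, a grouping made after the values were seen, PRC2 had 1 fall and 1 rise among 11 genes, those of Ezh2 and Phf1. PRC1 had 1 rise and 0 falls among 15. NuRD had 2 falls and 0 rises among 11, those of Mbd2 and Mbd3, with 10 means below 0. Rbbp4, counted in both PRC2 and NuRD, had the lowest mean of each and did not pass. Its replicates were -0.46, -1.30 and -1.50. SWI/SNF had 3 falls and 1 rise among 13. As shares, 9.09% of PRC2, 18.2% of NuRD and 23.1% of SWI/SNF genes fell. Over all 20265 features 6.58% fell, 5.43% rose and 9867 means were below 0. The counts of a complex are small and were not tested. The medians were -0.00 for PRC2, 0.02 for PRC1, -0.14 for NuRD and -0.19 for SWI/SNF.

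**Figure D3:**
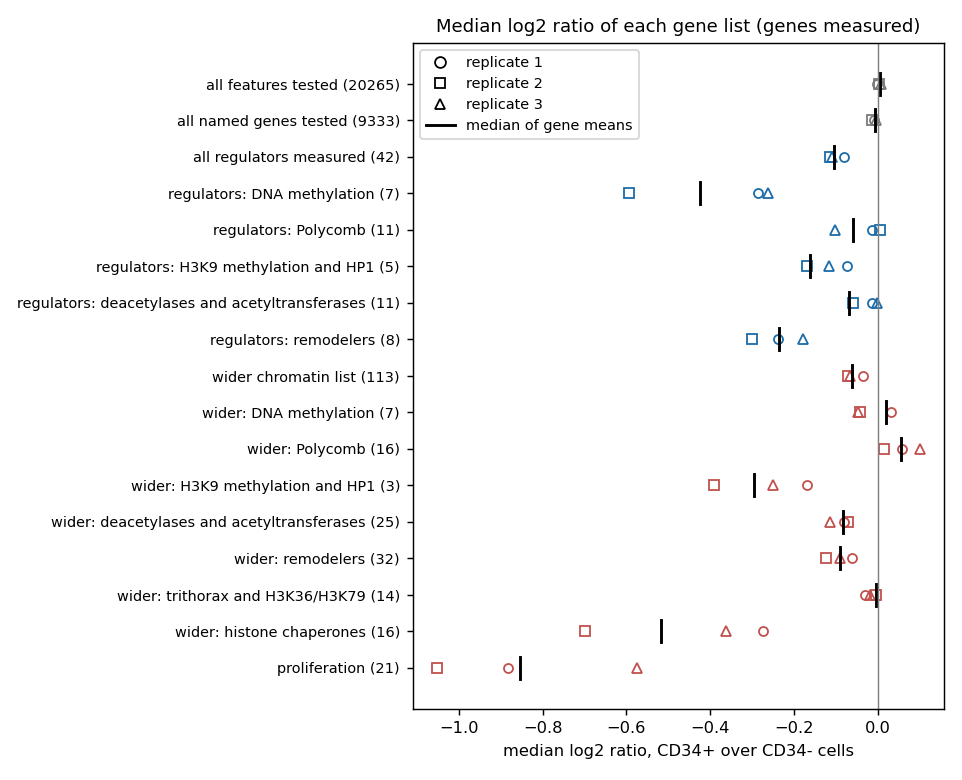
Median log2 ratio of CD34+ over CD34- cells (x axis) over all features, over the 42 regulators and their classes, and over the wider and proliferation lists (y axis, number of measured genes in brackets). Open symbols are the medians of the 3 replicates and black bars the medians of the gene means. DNA methylation (-0.42), histone chaperones (-0.52) and proliferation (-0.85) lie farthest below 0.

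Most genes of the proliferation list fell too. Of 21 measured, 18 fell, 0 rose and 3 did not pass, with a median of -0.85 and replicate medians of -0.88, -1.05 and -0.58. The proliferation marker Mki67 fell by 1.87 ± 0.51 and the topoisomerase Top2a fell by 1.38 ± 0.20 (limma adjusted p 0.0204 and 0.0119), while Pcna, the replication clamp, was at -0.33 ± 0.20 and did not pass. The lowest replicate median was that of replicate 2. Uhrf1, Dnmt1, Mbd2, Mbd3, Ncor1 and Smarca4 had their lowest ratio in replicate 2 as well. So did the median of the wider histone chaperones, at -0.27, -0.70 and -0.36 in replicates 1, 2 and 3. Ezh2 was lowest in replicate 3, where the proliferation median was nearest to 0, and Satb1 in replicate 1. Outside the proliferation list, Itga6, Baz1a and Rcor1 were lowest in replicate 2 too, and Hmgb2 and Anp32e in replicate 3. The share of all features lowest in replicate 2 was not counted. An order of 3 replicates is no test of a link. The part of proliferation in the lower levels of the 8 regulators was not tested.

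Some markers of other cells that could enter the gates passed, where 6.58% of all features fell and 5.43% rose. Of 9 Langerhans and myeloid markers 1 fell, Tyrobp at -0.24, and 0 rose, with replicate medians of 0.01, -0.47 and -0.04. None of 5 T cell markers and none of 5 endothelial markers passed in limma, with 2 and 1 higher at an unadjusted p under 0.05. Of 7 melanocyte markers, Dct and Mitf rose by 0.79 and 0.99, and of 6 fibroblast markers Col1a2 rose by 1.02. The other melanocyte markers did not pass, with means from -0.04 for Kit to 0.04 for Pmel. The other fibroblast markers did not pass either, from -0.00 for Dcn to 0.34 for Lum. Lum was higher on 6 of 6 arrays (limma unadjusted p 0.0216). Pdgfra was at 0.07, and at 0.30 on the deposited ratios. Among 5 suprabasal markers Krt1 fell by 2.28 while Lor and Klf4 rose by 1.51 and 0.91. The part of these cells in the ratios of the regulators was not tested.

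**Figure D4:**
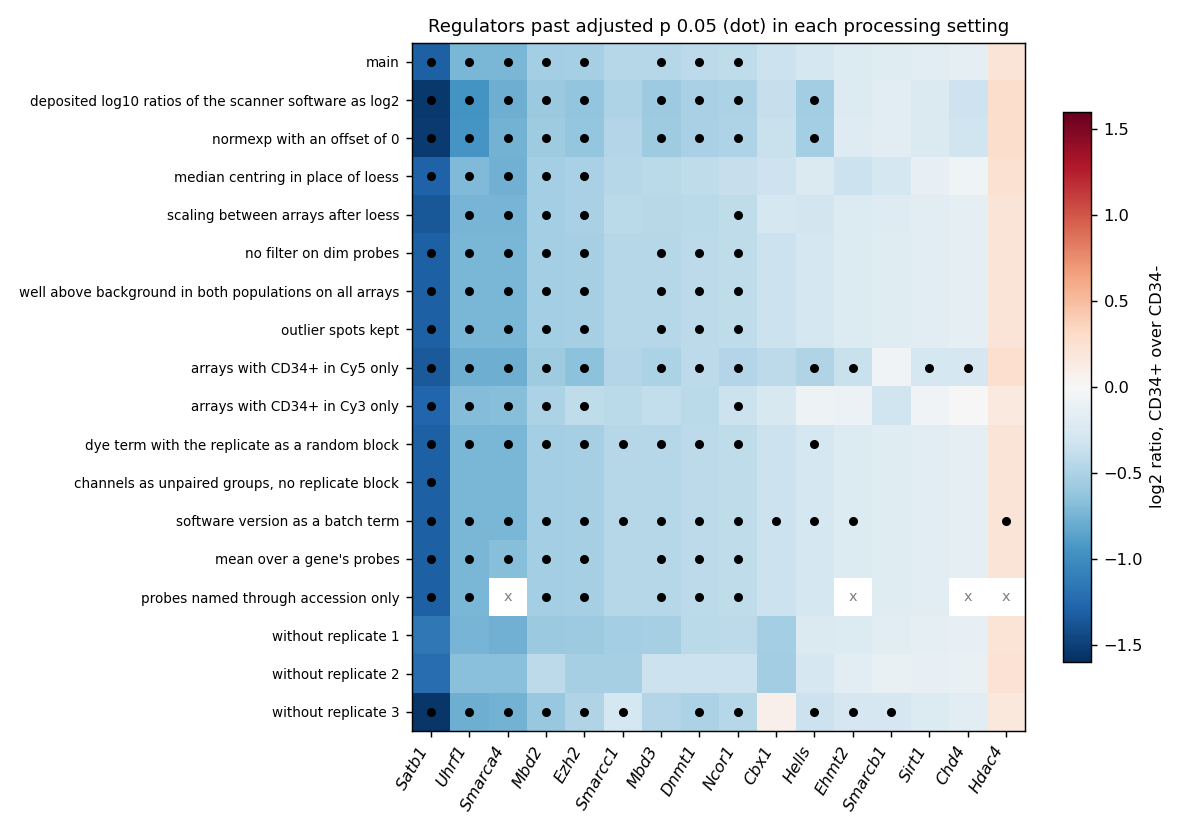
Log2 ratio (colour) of the 16 regulators that passed in at least 1 processing setting (columns) under the main setting and 17 alternatives (rows). Dots mark an adjusted p under 0.05 and crosses genes with no probe under that setting. Uhrf1, Mbd2, Ezh2 and Satb1 each passed in 14 of 17 alternatives, and no gene has a dot without replicate 1 or without replicate 2.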

How the data were processed

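The deposited scanner files give the intensity of each spot and its local background, taken per the file headers with Agilent Feature Extraction, and 21318 of the 22393 deposited features are not controls. The headers give another software version for the 2 arrays of replicate 3 than for the other 4, whereas the labels give 1 version for all. The software's log10 ratios (Cy5 over Cy3), also deposited, rest per the file headers on background-subtracted, dye-normalised signals. The value table of the whole series is their exact negative, with a largest difference of 0. Its column medians ran from 0 to 0.00274. The labels number 4 arrays as replicates 1 and 2, and the 2 unnumbered arrays of opposite dyes were taken as replicate 3 by elimination.

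In R 4.3.3, limma 3.58.1 corrected the background of mean intensities (normexp, offset 50), normalised within arrays by loess, and turned each log2 ratio to CD34+ over CD34-, with control and outlier spots at weight 0. The offset draws the ratios of dim probes toward 0. Spots of a probe and then the 2 arrays of a replicate were averaged. Probes were kept where 1 population lay well above background in 2 or more of the 3 replicates, which left out 472 of 20868, and 1 more lacked a value in a replicate. The mean ratio was tested for a difference from 0 (lmFit, eBayes), with p-values adjusted over all features. Both fractions lie on the same array, so the pairing of a replicate comes from the labels. Probes were named through accessions in a RefSeq table of GRCm38.p6 or through descriptions, and 12 of the 42 measured regulators have no probe named by accession. A gene is given by its brightest probe.

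The regulators, the other lists and the tests were chosen with earlier results of these data known. Every regulator is accounted for. Values in every replicate were given for each regulator that passed, or the one of smallest adjusted p in a class where none passed, and each class's largest rise and fall. From the wider list up to 2 rises and 2 falls per class with the same sign on all 6 arrays were named, then Mki67, Top2a and Pcna, and Cd34 and Itga6 as checks. Other genes were named after their values were seen, and some genes that the rule named are not reported here. Promoter letters were searched in Python 3.11.15. The sensitivity to 17 other settings is given at the end.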

Additional observations from a re-analysis of the deposited data

How the results depend on the processing

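Counts moved more than directions. Each of the 8 regulators that fell was below 0 under all of the 17 alternatives that measured it. No other gene named in the text that passed changed sign under any of them. In the main setting the 8 regulators were below 0 on 6 of 6 arrays. Alternatives that only leave out arrays, filter probes or change the fit on those ratios therefore could not turn their sign, and are no test of direction. The number that fell was 5 with median centring in place of loess and 5 with scaling between arrays, and from 0 to 11 with 1 replicate left out. The number that rose was 1, Hdac4, with the software version as a term, and 0 to 0 with 1 replicate left out. That term takes replicate 3 out of the error. In the unpaired fit, with no replicate block, 548 features and 1 regulator passed, against 2434 and 8. With a dye term and the replicate as a random block 4256 features passed, with the software version as a term 5310, and with 1 replicate left out 0 to 4205. The unadjusted p was under 0.05 for 4654 features without replicate 1, where limma called 0.

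The median of the regulators, -0.10, was -0.17 on the deposited log10 ratios as log2, -0.16 with an offset of 0, -0.0773 with median centring, -0.14 with CD34+ in Cy5 only and -0.085 with CD34+ in Cy3 only, and from -0.11 to -0.070 with 1 replicate left out. That of the wider list, -0.06, was -0.091 on the deposited ratios, -0.084 with an offset of 0, -0.039 with median centring and -0.097 with probes named through accession only, and from -0.088 to -0.041 with 1 replicate left out. That of the proliferation list, -0.85, ran from -1.07 to -0.82 with 1 replicate left out. The cause of these differences was not tested.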
